A study of Mus musculus with 12 samples.

Results

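The proteasome genes of mouse pancreatic islets were followed from isolation to 2 times after transplantation. Members were the rows of the deposited expression table whose symbol matched Psma to Psmg followed by a digit, which gave 49 of 23234 rows. Of these, 48 encode subunits, assembly chaperones or regulators of the proteasome, and the remaining row, Psmc3ip, encodes a recombination factor that shares only the start of its symbol. A total of 47 rows reached 1 FPKM (fragments per kilobase of transcript, scaled by the mapped fragments of the library) in at least 4 libraries and were tested. The 2 that did not were Psma8, a testis alpha subunit, at no more than 0.553 FPKM, and Psmb11, a thymic beta subunit, at 0.405 to 1.48 FPKM. All 46 tested proteasome genes were at 2.79 FPKM or more in every library, so none was tested only because of the group in which it was high.

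RNA-seq was carried out on 12 libraries from C57BL/6 mice. The groups were isolated islets (n = 4), islet grafts recovered from inguinal subcutaneous white adipose tissue 60 days after transplantation (n = 4) and grafts recovered from the same site at day 120 (n = 4). No other allele, agent or treatment is named in the labels, and neither the animals' age nor whether the libraries of a group came from separate animals is given there, so a p-value here is set by the differences among the libraries of a group, and these may be technical. A graft is a piece of tissue that can hold host cells beside the islet, and the read depth behind the FPKM values is unknown.

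The proteasome is the main protease of the cytosol and nucleus and degrades proteins tagged with ubiquitin. Its barrel, the 20S core, stacks rings of alpha subunits, which gate the entry, around rings of beta subunits, of which Psmb5, Psmb6 and Psmb7 carry the cutting sites; the 19S regulatory particle caps the barrel, binds ubiquitin chains and unfolds the substrate with a ring of ATPases. In leukocytes and in cells exposed to interferon gamma, Psmb8, Psmb9 and Psmb10 are built in instead of Psmb5, Psmb6 and Psmb7 respectively, and the resulting immunoproteasome makes peptides suited to MHC class I presentation. Beta cells make large amounts of secretory protein and use this machinery to clear misfolded proinsulin.

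The labelled tissue was checked first. All 14 endocrine markers examined (Iapp, Gcg, Sst, Chga, Pdx1 and others) were detected in every library, with a summed level of 52879 to 62700 FPKM in isolated islets, 40132 to 84025 at day 60 and 59673 to 72369 at day 120. Summed leukocyte markers were 25.4 to 45.3 FPKM in islets, 210 to 1561 at day 60 and 166 to 347 at day 120, and summed macrophage markers were 58.3 to 102, 460 to 4510 and 324 to 547 FPKM. Digestive enzyme genes of acinar cells summed to 6754 to 77216 FPKM in islets and to at most 20.5 FPKM in grafts. Replicate 1 of day 60 stood apart, with the highest leukocyte (1561 FPKM), macrophage (4510), fibroblast (4894) and adipocyte (9351) sums of all libraries and the lowest endocrine sum (40132). It also held the highest value of all 12 libraries in 34 of the 46 tested proteasome genes. Replicate 1 of the isolated islets had the lowest acinar sum (6754 FPKM) and the lowest islet value in 25 of the 46. For several results that rest on these libraries, values are also given without them. In such bulk libraries, fewer cells of a type and less RNA per cell cannot be told apart.

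At day 60, 13 of the 47 tested rows passed the test against isolated islets (27.7%), 11 higher and 2 lower, where 43.7% of all 13433 tested genes did so, 31.3% higher and 12.3% lower (limma on log2(FPKM + 1), Benjamini-Hochberg adjusted p under 0.05 over all genes). At day 120, 4 of 47 passed (8.51%), all higher, against 31.4% of all genes, 24.3% higher and 7.03% lower. Between day 120 and day 60 none of the 47 passed, where 2 genes of all (0.0149%) did. The share of proteasome rows that passed was lower than the background share in both comparisons with islets. The median log2 change of the 47 rows was 0.26 at day 60 and 0.01 at day 120, while the median over all tested genes was 0.27 and 0.30. The day 60 median depended on the replicate 1 libraries. Without that of day 60 it was 0.04 beside 0.29 over all genes, and without that of the islets alone it was 0.15 beside 0.33. Without both it was -0.0032 beside 0.35. The day 120 count was 1 to 11 when 1 library was left out in turn, where 13.8 to 45.2% of all genes were called. The 4 islet libraries enter both comparisons, which are therefore not independent.

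**Figure D1:**
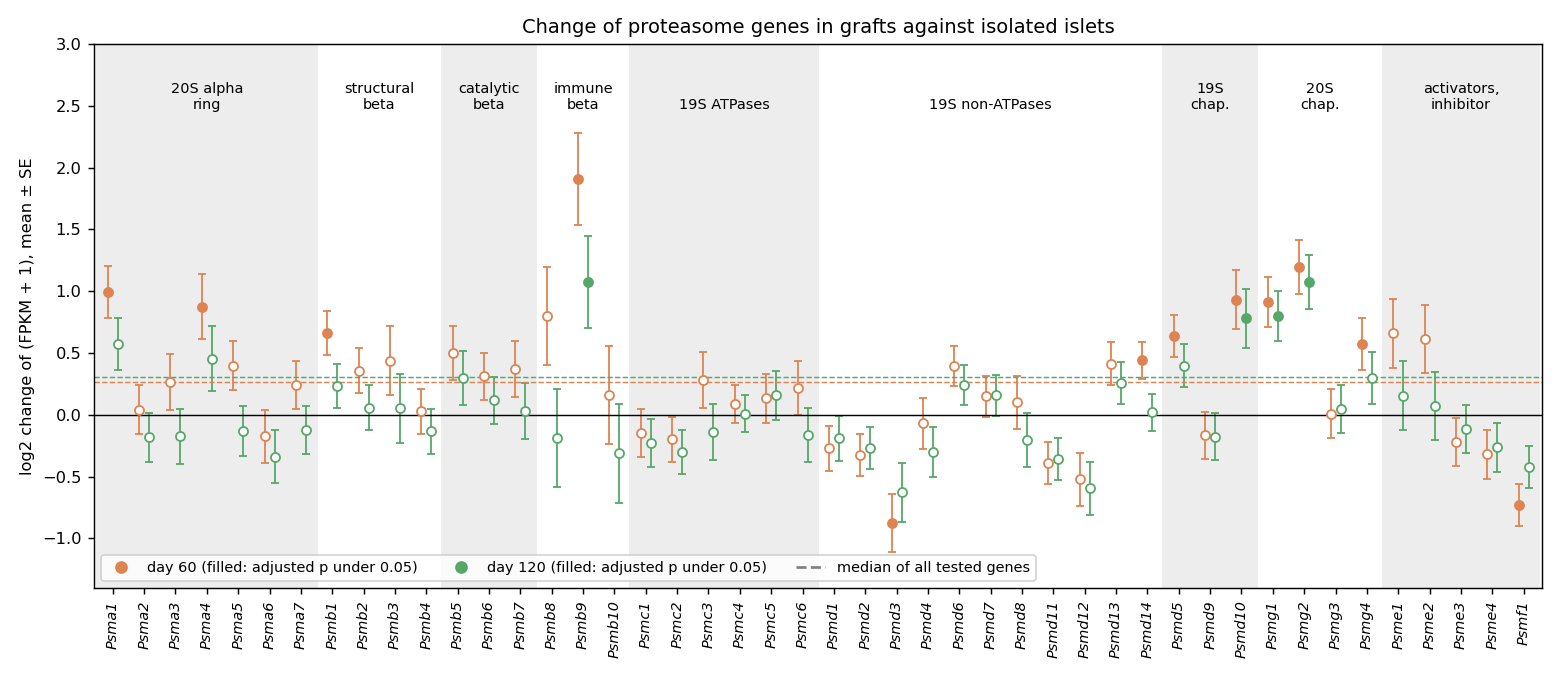
Log2 change of each tested proteasome gene against isolated islets on the vertical axis, on the log2(FPKM + 1) scale, at day 60 and day 120, with genes along the horizontal axis grouped by role; bars are standard errors, filled points passed at adjusted p under 0.05 and dashed lines are the medians of all tested genes. Psmb9 is the highest point at day 60 (1.91), Psmg1, Psmg2 and Psmd10 are filled above 0 at both times, and Psmd3 (-0.88) and Psmf1 (-0.73) are filled below 0 at day 60.

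The direction of these splits depended on scaling. With the FPKM values as deposited, 11 members were called higher and 2 lower at day 60, but the split became 8 and 5 with upper-quartile scaling, 6 and 8 with scaling to the sum without hormone and acinar genes, and 7 and 6 with quantile normalization. At day 120 it went from 4 and 0 to 3 and 5, 4 and 1, and 3 and 4 in the same order. Under all of these scalings 7 of the 13 day 60 calls were kept in the same direction, namely Psma1, Psma4, Psmb9, Psmg1 and Psmg2 higher and Psmd3 and Psmf1 lower. The same 7 were also called without each library in turn.

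Of the immune subunits, Psmb9 rose at both times, whereas Psmb8 and Psmb10 passed in neither comparison. The start regions of the immune genes Psmb8 and Psmb9 and of Psmb5 and Psmb6, which they replace, are shown first, because interferon and stress signals are known to act on these genes through such regions. Each is the 250 bases before the start site, from RefSeq (GRCm38.p6, a later build than the mm9 used for the expression values), and of the 48 proteasome genes 40 had an entry. The motifs searched on both strands were the interferon-stimulated response element (GAAA, any 2 bases, GAAA), the gamma-activated site (TTCNNNGAA) and the antioxidant response element (TGACNNNGC). They were present in 2.98%, 7.02% and 10.2% of all 32851 windows of this length and in 3, 2 and 5 of the 40 proteasome genes. The Psmb8 window (chr17:34197945-34198194, plus strand) holds a gamma-activated site match, in capitals, 97 to 89 bases before the start. In the Psmb9 window (chr17:34187331-34187580, minus strand) the capitals mark the 25 bases that already belong to Tap1, the gene of a peptide transporter subunit, which is read in the other direction from a start separated from that of Psmb9 by 225 bases; none of the 3 motifs is spelled in this window or in that of Psmb10. The Psmb5 (chr14:54617996-54618245, minus strand) and Psmb6 (chr11:70525107-70525356, plus strand) windows each hold an antioxidant response element match, in capitals, at 47 to 39 and 9 to 1 bases before the start. These matches are a description of the letters and not of binding.
Psmb8: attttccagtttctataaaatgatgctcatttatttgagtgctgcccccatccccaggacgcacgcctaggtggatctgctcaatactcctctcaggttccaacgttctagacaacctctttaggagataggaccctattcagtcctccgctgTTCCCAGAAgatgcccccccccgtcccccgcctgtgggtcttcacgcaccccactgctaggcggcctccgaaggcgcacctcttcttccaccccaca
Psmb9: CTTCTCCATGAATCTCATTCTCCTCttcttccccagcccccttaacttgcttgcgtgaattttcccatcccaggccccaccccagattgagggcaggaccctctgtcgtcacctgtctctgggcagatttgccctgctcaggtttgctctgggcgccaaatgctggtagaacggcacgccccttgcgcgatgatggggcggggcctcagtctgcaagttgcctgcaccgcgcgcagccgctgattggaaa
Psmb5: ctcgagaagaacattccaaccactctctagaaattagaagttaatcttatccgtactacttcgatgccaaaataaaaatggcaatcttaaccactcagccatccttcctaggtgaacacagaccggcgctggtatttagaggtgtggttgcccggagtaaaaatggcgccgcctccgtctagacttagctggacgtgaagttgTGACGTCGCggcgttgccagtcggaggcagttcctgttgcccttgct
Psmb6: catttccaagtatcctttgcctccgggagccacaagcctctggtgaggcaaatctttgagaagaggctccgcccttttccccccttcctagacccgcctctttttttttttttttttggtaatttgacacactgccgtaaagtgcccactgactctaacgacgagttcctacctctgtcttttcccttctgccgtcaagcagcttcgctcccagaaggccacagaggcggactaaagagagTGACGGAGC

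Psmb9, the immune subunit that takes the place of Psmb6, was at 4.33, 3.04, 4.14 and 3.39 FPKM in isolated islets, at 45.4, 10.1, 12.5 and 12.9 at day 60, and at 9.79, 7.16, 6.73 and 13.0 at day 120. Every graft value lay above every islet value, and replicate 1 of day 60 lay far above the other grafts. The log2 change was 1.91 (SE 0.37, adjusted p = 0.0024) at day 60 and 1.07 (SE 0.37, adjusted p = 0.0448) at day 120. Without replicate 1 of both the islets and day 60 it was 1.504 and 1.135, and Psmb9 was called at both times. In that setting 57.9% of all genes were called at day 60 and 56.5% at day 120. The day 120 call was lost without any 1 of 8 libraries (replicate 2, 3 or 4 of the islets, replicate 3 of day 60, or any day 120 graft), with adjusted p up to 0.122. It was also lost under 2 of the 3 scalings, with adjusted p up to 0.0997, and with no filter on low values. The leukocyte and macrophage markers moved in the same direction. Of these, 9 of 9 and 9 of 10 were called higher at day 60 and 8 of 9 and 7 of 10 at day 120. Fibroblast and adipocyte markers did so too, 6 of 6 each at day 60 and 6 of 6 and 5 of 6 at day 120. Endothelial markers had 3 of 7 and 2 of 7 called higher. Of all genes, 31.3% were called higher at day 60 and 24.3% at day 120. The part of these cell types in the Psmb9 result was not tested.

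Psmb8, which takes the place of Psmb5, was at 7.76, 17.3, 19.3 and 17.8 FPKM in islets, 68.5, 18.7, 19.9 and 18.5 at day 60, and 16.4, 9.49, 12.4 and 13.7 at day 120. Apart from the low replicate 1 of the islets and the high replicate 1 of day 60, islets and day 60 grafts lay within a narrow common range, and all 4 day 120 grafts lay below the other 3 islet libraries. The log2 change was 0.80 at day 60 (95% interval -0.06 to 1.66, adjusted p = 0.117) and -0.19 at day 120 (interval -1.05 to 0.67, adjusted p = 0.733). At day 60 the change was 0.35 without replicate 1 of day 60 and 0.07 without both of those libraries. Without both, the day 120 change was -0.47 (adjusted p = 0.0238), in a setting where 56.5% of all genes were called. Without replicate 1 of the islets alone the change was the same, with adjusted p = 0.35. The day 60 library is in neither group of that comparison and enters it only through the fit over all libraries.

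Psmb10, which takes the place of Psmb7, was at 8.26, 18.0, 11.8 and 19.03 FPKM in islets, 41.5, 8.88, 13.2 and 10.8 at day 60, and 14.2, 8.92, 9.65 and 10.9 at day 120. The 3 groups overlapped, and replicate 1 of day 60 was again the highest library. Its log2 change was 0.16 (interval -0.70 to 1.02, adjusted p = 0.768) at day 60 and -0.31 (interval -1.17 to 0.55, adjusted p = 0.565) at day 120. The day 60 direction turned to -0.30 (adjusted p = 0.353) without replicate 1 of day 60 and to -0.52 (adjusted p = 0.0523) without the same 2 libraries. Without those 2 the day 120 change was -0.53 (adjusted p = 0.0381), where 56.5% of all genes were called. The change was the same without replicate 1 of the islets alone, with adjusted p = 0.328.

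**Figure D2:**
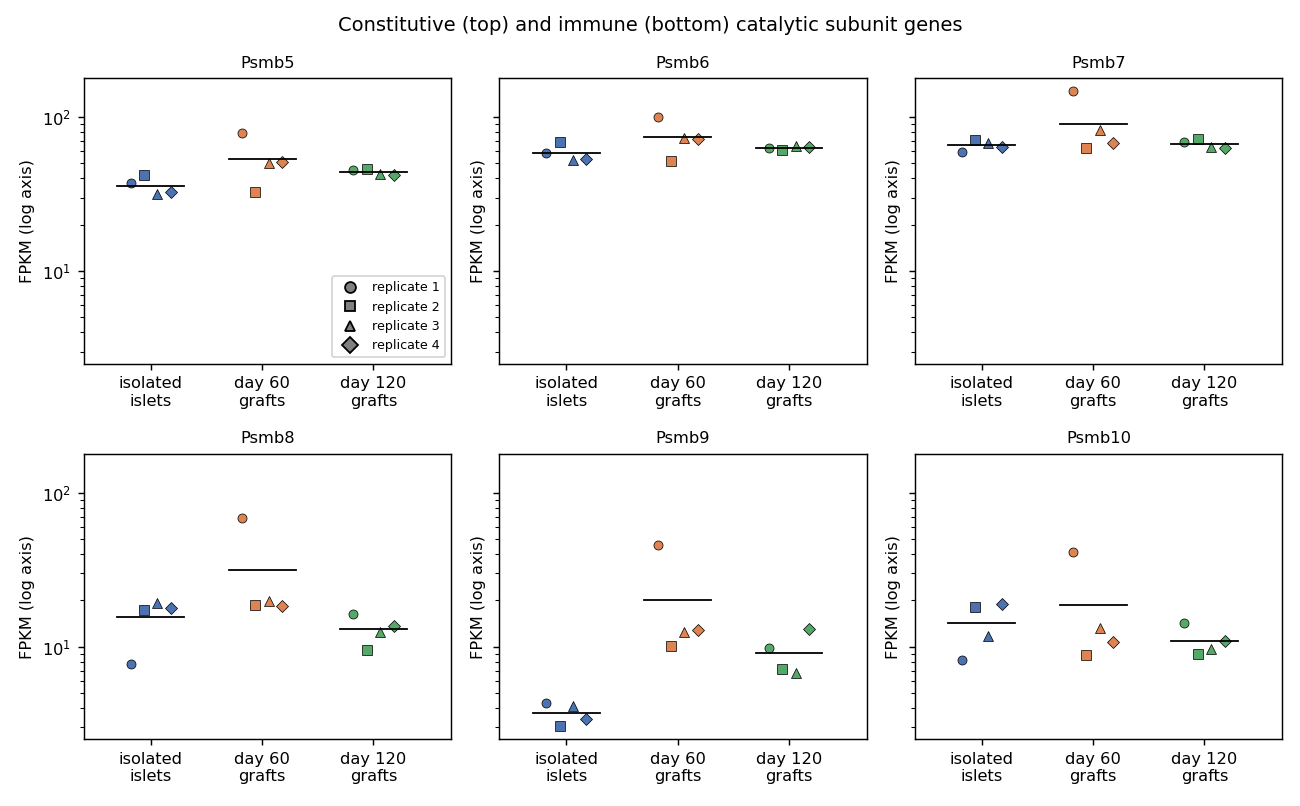
FPKM on a log axis of the constitutive catalytic subunits Psmb5, Psmb6 and Psmb7 and of the immune subunits Psmb8, Psmb9 and Psmb10 in each library, with 1 marker shape per replicate number and short bars at group means. Psmb9 separates grafts from islets in every library, from at most 4.33 FPKM in islets to at least 6.73 in grafts, while the other 5 genes overlap between islets and grafts and day 60 replicate 1 is the top point in each.

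The constitutive catalytic subunits did not pass in any comparison. Psmb5, with chymotrypsin-like activity, was at 37.3, 42.1, 31.5 and 32.5 FPKM in islets, 78.2, 32.8, 49.997 and 51.2 at day 60, and 45.3, 46.2, 42.4 and 42.1 at day 120. Psmb6, with caspase-like activity, averaged 58.4 ± 7.57 FPKM in islets, 74.3 ± 20.1 at day 60 and 63.1 ± 1.65 at day 120 (SD, n = 4 each). Psmb7, with trypsin-like activity, averaged 65.6 ± 5.04, 89.96 ± 38.6 and 66.9 ± 4.19 FPKM in the same order. All 3 overlapped between islets and each graft group, with log2 changes of 0.31 to 0.50 at day 60 (adjusted p 0.0812 to 0.203) and 0.03 to 0.30 at day 120 (adjusted p 0.305 to 0.934). Without replicate 1 of day 60 the day 60 changes were 0.29 for Psmb5, 0.16 for Psmb6 and 0.11 for Psmb7.

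Per library, the share of the immune gene in its pair shows the balance without a scaling factor, because any factor of the library cancels. Psmb9 made up 6.92, 4.21, 7.26 and 5.98% of Psmb9 plus Psmb6 in islets, 31.1, 16.4, 14.6 and 15.2% at day 60, and 13.5, 10.5, 9.42 and 16.9% at day 120. All 8 grafts thus lay above all 4 islet libraries. Psmb8 made up 17.2, 29.1, 37.9 and 35.4% of Psmb8 plus Psmb5 in islets, 46.7, 36.3, 28.5 and 26.5% at day 60, and 26.6, 17.04, 22.7 and 24.5% at day 120. Psmb10 made up 12.2 to 22.9% of Psmb10 plus Psmb7 in islets, 12.4 to 22.1% at day 60 and 11.01 to 17.2% at day 120. The groups overlapped for these 2 pairs, so the pair that moved apart was Psmb9 and Psmb6. FPKM is scaled by transcript length, so these are shares of transcripts and not of assembled protein.

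The log2 ratio of each pair, with 1 added to both FPKM values, was compared with two-sided exact permutation tests. There were 9 in all, where 4 against 4 libraries allow no p under 0.0286. Because of the added 1, a factor of the library does not cancel fully in these ratios, unlike in the shares. The Psmb9 to Psmb6 ratio was higher than in islets by 1.60 at day 60 (exact p = 0.0286, adjusted 0.129) and by 0.96 at day 120 (exact p = 0.0286, adjusted 0.129), in 4 of 4 grafts each time. Neither passes after adjustment, although both are at the smallest p that these group sizes allow. A p at that limit falls under 0.05 after adjustment only if most of the 9 tests are at it as well. The adjusted result therefore decides nothing about this pair. With 0.1 added in place of 1, these differences were 1.82 and 1.12. The Psmb8 to Psmb5 ratio differed from islets by 0.30 at day 60 (exact p = 0.543, adjusted 0.657) and by -0.49 at day 120 (exact p = 0.229, adjusted 0.386), and the Psmb10 to Psmb7 ratio by -0.21 (exact p = 0.6, adjusted 0.657) and -0.34 (exact p = 0.257, adjusted 0.386). Without replicate 1 of the islets and of day 60 together, the Psmb8 to Psmb5 difference turned to -0.24 at day 60 and was -0.79 at day 120, and the Psmb10 to Psmb7 difference was -0.58 and -0.51. In that setting the groups did not overlap for Psmb8 to Psmb5 at day 120 and for Psmb10 to Psmb7 at day 60, both lower in grafts, and the Psmb9 to Psmb6 difference was 1.35 and 1.02, higher without overlap. The largest difference between the graft times was that of Psmb8 to Psmb5, lower at day 120 by 0.79 (exact p = 0.0571, adjusted 0.171).

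**Figure D3:**
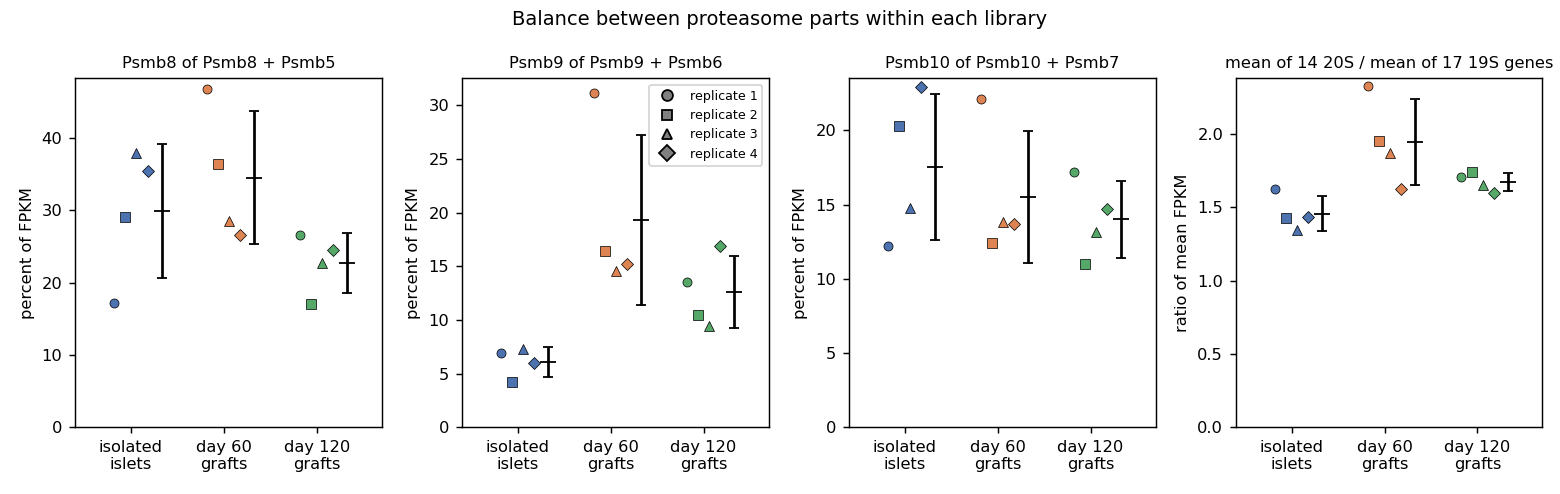
Immune share of each catalytic pair in percent of the pair's summed FPKM, and the ratio of the mean FPKM of 14 core genes to that of 17 19S genes, for each library of the 3 groups, with mean and SD (n = 4) beside the points and 1 marker shape per replicate number. The Psmb9 share lies between 4.21 and 7.26% in islets and between 9.42 and 31.1% in grafts, whereas the Psmb8 and Psmb10 shares overlap between groups.

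Of the 14 constitutive genes of the 20S core, 3 rose at day 60 and none fell, and none passed at day 120. Of all genes, 31.3% were called higher and 12.3% lower at day 60, and 31.4% were called at day 120. Their median log2 change was 0.36 at day 60 and 0.04 at day 120, beside 0.27 and 0.30 over all genes. Without replicate 1 of day 60 the day 60 median was 0.13 beside 0.29 over all genes, and without both replicate 1 libraries it was 0.11 beside 0.35. Without replicate 1 of the islets alone it was 0.323 beside 0.331. In each of these settings it thus lay below that of all genes. Under the 3 scalings it lay above, at 0.20 beside 0.13 (upper-quartile), 0.06 beside 0.02 (sum) and 0.13 beside -0.04 (quantile). It also lay above when any other single library was left out. Leaving out 1 library gave 3 to 6 higher at day 60 (6 without replicate 2 of day 60) and 0 to 2 at day 120 (2 without replicate 1 of day 60, and 1 without replicate 2 of day 60 or replicate 1 of the islets), with none lower. Scaling left the day 60 count at 3 higher and 0 lower with upper-quartile scaling and quantile normalization and turned it to 2 higher and 1 lower with the sum scaling. Of all genes, 42.5, 39.5 and 36.5% were called at day 60 under these 3 scalings. Group means of these genes ran from 32.0 FPKM (Psma5) to 84.1 (Psma7) in islets, from 44.1 (Psma5) to 115 (Psmb1) at day 60 and from 29.3 (Psma5) to 83.1 (Psmb1) at day 120. Replicate 1 of day 60 was the highest library for all 14, so each day 60 mean holds that library.

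The 3 that rose were the alpha ring subunits Psma1 and Psma4 and the structural beta subunit Psmb1. Psma1 was at 43.6, 32.1, 32.3 and 29.3 FPKM in islets, 107, 55.6, 65.8 and 56.6 at day 60, and 52.7, 57.0, 47.8 and 47.1 at day 120. It separated islets from both graft groups without overlap, with a log2 change of 1.00 (adjusted p = 0.00355) at day 60 and 0.57 (adjusted p = 0.0548) at day 120. Without replicate 1 of day 60 the day 60 change was 0.78. Psma4 was at 45.2, 45.0, 45.5 and 53.0 FPKM in islets, 167, 68.8, 86.4 and 57.9 at day 60, and 72.04, 64.1, 62.5 and 61.2 at day 120. Its groups did not overlap either, and its log2 change at day 60 was 0.87 (adjusted p = 0.0175). It was 0.55 (adjusted p = 0.0124) without replicate 1 of both the islets and day 60, where 57.9% of all genes were called. Psmb1 was at 76.0, 70.5, 67.9 and 67.3 FPKM in islets, 160, 100, 109 and 88.6 at day 60, and 82.9, 89.7, 78.0 and 82.0 at day 120, also without overlap. It rose by 0.66 on the log2 scale at day 60 (adjusted p = 0.0112) and differed by 0.24 at day 120 (adjusted p = 0.319), the first of which was lost under 1 of the 3 scalings. The day 60 change of Psmb1 was 0.49 without replicate 1 of day 60.

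At the other end of the alpha ring, Psma6 averaged 63.1 ± 11.2 FPKM in islets, 57.0 ± 18.6 at day 60 and 49.2 ± 4.65 at day 120 (SD, n = 4 each), with log2 changes of -0.17 (adjusted p = 0.529) and -0.34 (adjusted p = 0.232). Psmb4 held the lowest change of the structural beta genes, 0.03 at day 60 (adjusted p = 0.915) and -0.13 at day 120 (adjusted p = 0.593). Genes of 1 ring, whose proteins are built in equal numbers, thus differed in log2 change by more than 1 unit at day 60, from -0.17 for Psma6 to 1.00 for Psma1. That spread is a description, and the difference between the genes was not tested.

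Of the 17 genes of the 19S regulatory particle, Psmd14 rose and Psmd3 fell at day 60, and none passed at day 120, beside 43.7% and 31.4% of all genes called. The median log2 change was 0.09 at day 60 and -0.19 at day 120, in both cases below the median of all genes. Without replicate 1 of day 60 the day 60 median was -0.10. None of the 6 ATPase genes passed in any comparison: their log2 changes ran from -0.20 (Psmc2, adjusted p = 0.383) to 0.28 (Psmc3, adjusted p = 0.334) at day 60 and from -0.30 (Psmc2, adjusted p = 0.203) to 0.16 (Psmc5, adjusted p = 0.556) at day 120. Under the scalings, in the order used above, the 19S calls at day 60 were 0 higher with 4, 6 and 5 lower, and those at day 120 were 0 higher with 4, 1 and 3 lower. The count of lower 19S genes thus depended on the scaling.

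Psmd3, a scaffold subunit of the lid, was at 35.4, 67.0, 67.5 and 61.1 FPKM in islets, 31.1, 20.4, 30.5 and 41.9 at day 60, and 36.3, 32.3, 36.4 and 38.9 at day 120. Replicate 1 of the islets lay among the grafts, and the other 3 islet libraries lay above all grafts. Psmd3 fell by 0.88 on the log2 scale at day 60 (adjusted p = 0.0114) and differed by -0.63 at day 120 (adjusted p = 0.0611). Without replicate 1 of the islets these changes were -1.09 and -0.84. Psmd12, another lid scaffold, showed the same layout, at 28.7, 60.6, 55.6 and 53.5 FPKM in islets, 37.0, 27.2, 32.5 and 35.9 at day 60, and 28.9, 34.999, 30.7 and 30.7 at day 120. Its log2 changes of -0.52 (adjusted p = 0.0656) and -0.59 (adjusted p = 0.0516) did not pass with the FPKM values as deposited. Under each of the 3 scalings Psmd12 was called lower at both times, with adjusted p up to 0.023 and 0.0372. At day 60 Psmd2 and Psmd11 were also called lower under all 3 scalings. Psmd14, the lid enzyme that removes ubiquitin chains, was at 17.3, 17.7, 18.3 and 16.7 FPKM in islets, 31.3, 21.0, 23.4 and 21.8 at day 60, and 16.5, 18.7, 17.8 and 18.1 at day 120. Day 60 lay above both other groups without overlap, with a log2 change of 0.44 (adjusted p = 0.0301) that was lost under all 3 scalings and without any 1 of 5 libraries (replicate 2, 3 or 4 of the islets and replicate 1 or 3 of day 60).

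Leaving out replicate 1 of the islets and of day 60 together changed the count for the 19S most. Then 8 of the 17 genes were lower at day 60 (Psmc1, Psmc2, Psmd1, Psmd2, Psmd3, Psmd4, Psmd11 and Psmd12) and 1 was higher (Psmd14), and 5 were lower at day 120 (Psmc2, Psmd3, Psmd4, Psmd11 and Psmd12) with none higher. The 20S core then had 3 higher and 1 lower at day 60, and 2 higher (Psma1 and Psma4) and 1 lower (Psma6) at day 120. Over all 47 rows the counts became 10 higher and 10 lower at day 60 and 8 higher and 9 lower at day 120, while 57.9% and 56.5% of all genes tested were called in that setting. The islet library left out had the lowest acinar sum of the islets (6754 FPKM, against up to 77216), and the part of acinar RNA in the 19S values was not tested.

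The mean level of the 14 core genes divided by that of the 17 19S genes was 1.62, 1.42, 1.34 and 1.44 in islets, 2.33, 1.95, 1.87 and 1.63 at day 60, and 1.70, 1.74, 1.65 and 1.60 at day 120. All day 60 grafts lay above all islet libraries, and the lowest day 120 graft lay below the highest islet library. This ratio is given as a description, since the members were chosen with earlier results known.

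**Figure D4:**
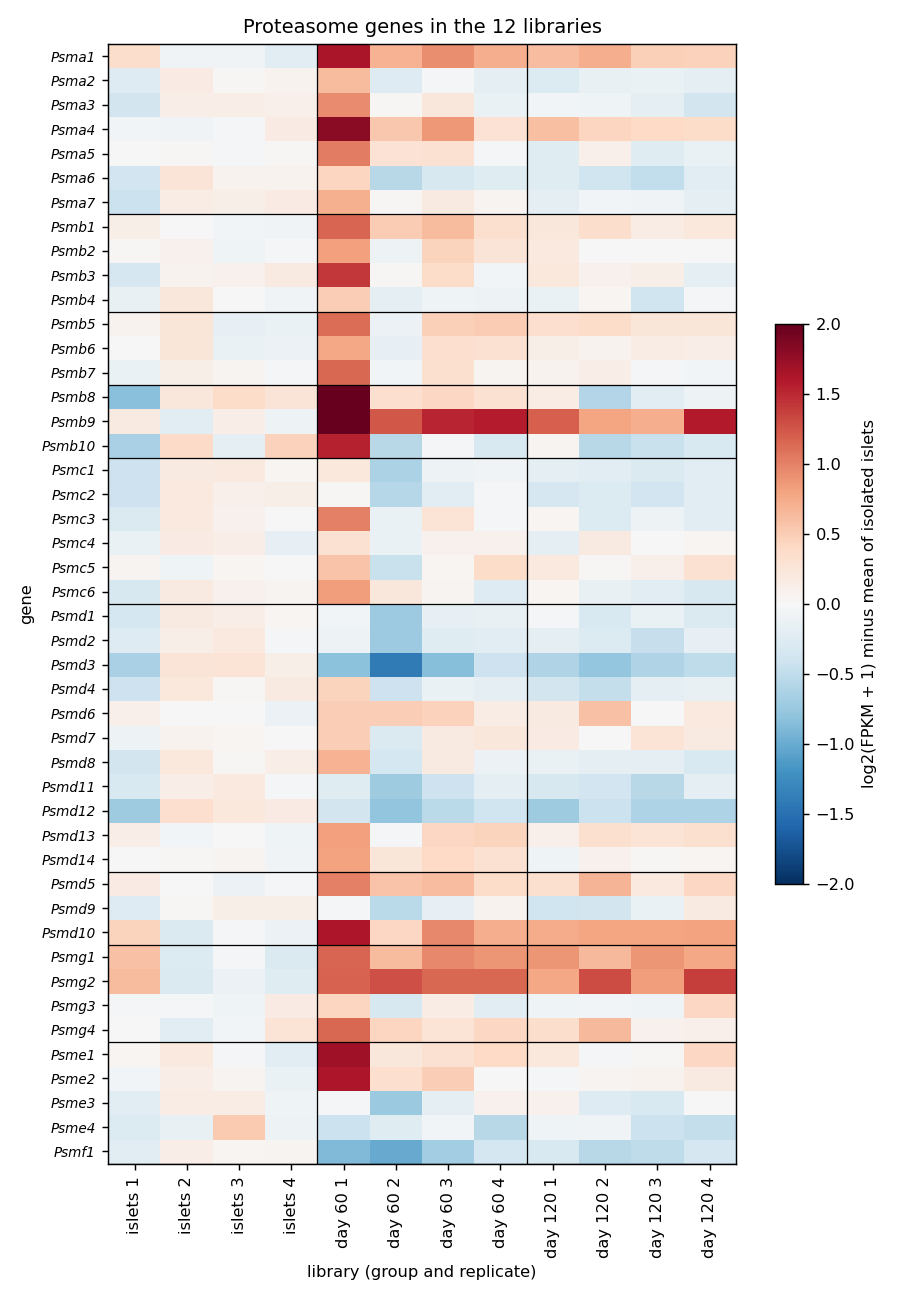
Log2(FPKM + 1) of each tested proteasome gene in each of the 12 libraries, as the difference from the gene's mean over the islet libraries, with genes in rows grouped by role and libraries in columns; colours saturate at 2 log2 units on either side. Day 60 replicate 1 is the column with the highest values in 34 of 46 genes, and the row of Psmb9 is raised in all 8 grafts.

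Assembly chaperones held most of the calls that were present at both times. These proteins bind unfinished proteasomes and leave the finished one. Of the 4 chaperones of the core, 3 rose at day 60 (Psmg1, Psmg2 and Psmg4) and 2 at day 120 (Psmg1 and Psmg2), and of the 3 chaperones of the 19S base, 2 rose at day 60 (Psmd5 and Psmd10) and 1 at day 120 (Psmd10). These 5 of 7 and 3 of 7 stand beside 31.3% and 24.3% of all genes called higher. Whether the chaperones differ from other genes in this was not tested. The 4 rows called in both graft comparisons were Psmg1, Psmg2, Psmd10 and Psmb9.

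Psmg1 and Psmg2 form a pair that guides the building of the alpha ring. Psmg1 was at 9.39, 4.69, 5.77 and 4.67 FPKM in islets, 14.5, 9.72, 12.4 and 11.7 at day 60, and 11.7, 9.78, 11.8 and 10.9 at day 120. Psmg2 was at 8.68, 4.11, 4.71 and 4.27 FPKM in islets, 13.1, 14.2, 12.8 and 12.7 at day 60, and 9.63, 14.3, 10.1 and 15.2 at day 120. For both genes every graft lay above every islet library, and replicate 1 of the islets was the highest islet library. Psmg1 rose by 0.91 (adjusted p = 0.00441) and 0.80 (adjusted p = 0.0138) on the log2 scale at day 60 and day 120, and Psmg2 by 1.19 (adjusted p = 0.00179) and 1.07 (adjusted p = 0.00586). Without replicate 1 of the islets the changes were 1.11 and 1.00 for Psmg1 and 1.41 and 1.29 for Psmg2. Psmg2 was called at both times under each of the 19 alternatives, and at day 60 its replicates other than the first lay as high as the first, unlike Psmb9. The Psmg1 call at day 120 was lost without replicate 2 or replicate 4 of the islets, with adjusted p up to 0.0514.

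The other pair of core chaperones, Psmg3 and Psmg4, differed from each other. Psmg4 was at 10.5, 8.86, 9.97 and 12.9 FPKM in islets, 24.4, 14.5, 12.9 and 14.3 at day 60, and 13.7, 16.9, 11.1 and 11.3 at day 120. Its log2 change was 0.57 (adjusted p = 0.0439) at day 60, and the call was lost under all 3 scalings, with no filter on low values, with the replicate block and, with adjusted p up to 0.12, without any 1 of 8 libraries (replicate 1, 2 or 3 of the islets, 1 or 2 of day 60, and 1, 3 or 4 of day 120). Psmg3 averaged 5.88 ± 0.542 FPKM in islets, 6.06 ± 1.75 at day 60 and 6.18 ± 1.34 at day 120 (SD, n = 4 each), with log2 changes of 0.01 (adjusted p = 0.974) and 0.05 (adjusted p = 0.869).

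Psmd10, also known as gankyrin, which assists the ATPase ring, was at 5.32, 2.79, 3.48 and 3.26 FPKM in islets, 13.2, 5.17, 8.02 and 6.67 at day 60, and 6.72, 7.01, 6.98 and 7.05 at day 120. The islet library at 5.32 FPKM overlapped the day 60 graft at 5.17, and all day 120 grafts lay above all islets. It rose by 0.93 (adjusted p = 0.00875) and 0.78 (adjusted p = 0.0286) on the log2 scale, the second of which was lost, with adjusted p up to 0.0893, without replicate 2, 3 or 4 of the islets or without any day 120 graft. The day 60 change was 0.70 without replicate 1 of day 60. With quantile normalization the Psmd10 changes were 0.57 (adjusted p = 0.0574) and 0.42 (adjusted p = 0.172), and both calls were lost. Psmd5 was at 9.58, 8.51, 7.72 and 8.18 FPKM in islets, 18.0, 13.1, 13.5 and 11.2 at day 60, and 10.8, 14.2, 9.79 and 11.6 at day 120, and rose by 0.64 (adjusted p = 0.0105) at day 60, a call lost under 1 of the 3 scalings. Psmd9 averaged 6.204 ± 0.865, 5.47 ± 1.13 and 5.41 ± 1.24 FPKM (SD, n = 4 each), with log2 changes of -0.17 (adjusted p = 0.501) and -0.18 (adjusted p = 0.479).

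**Figure D5:**
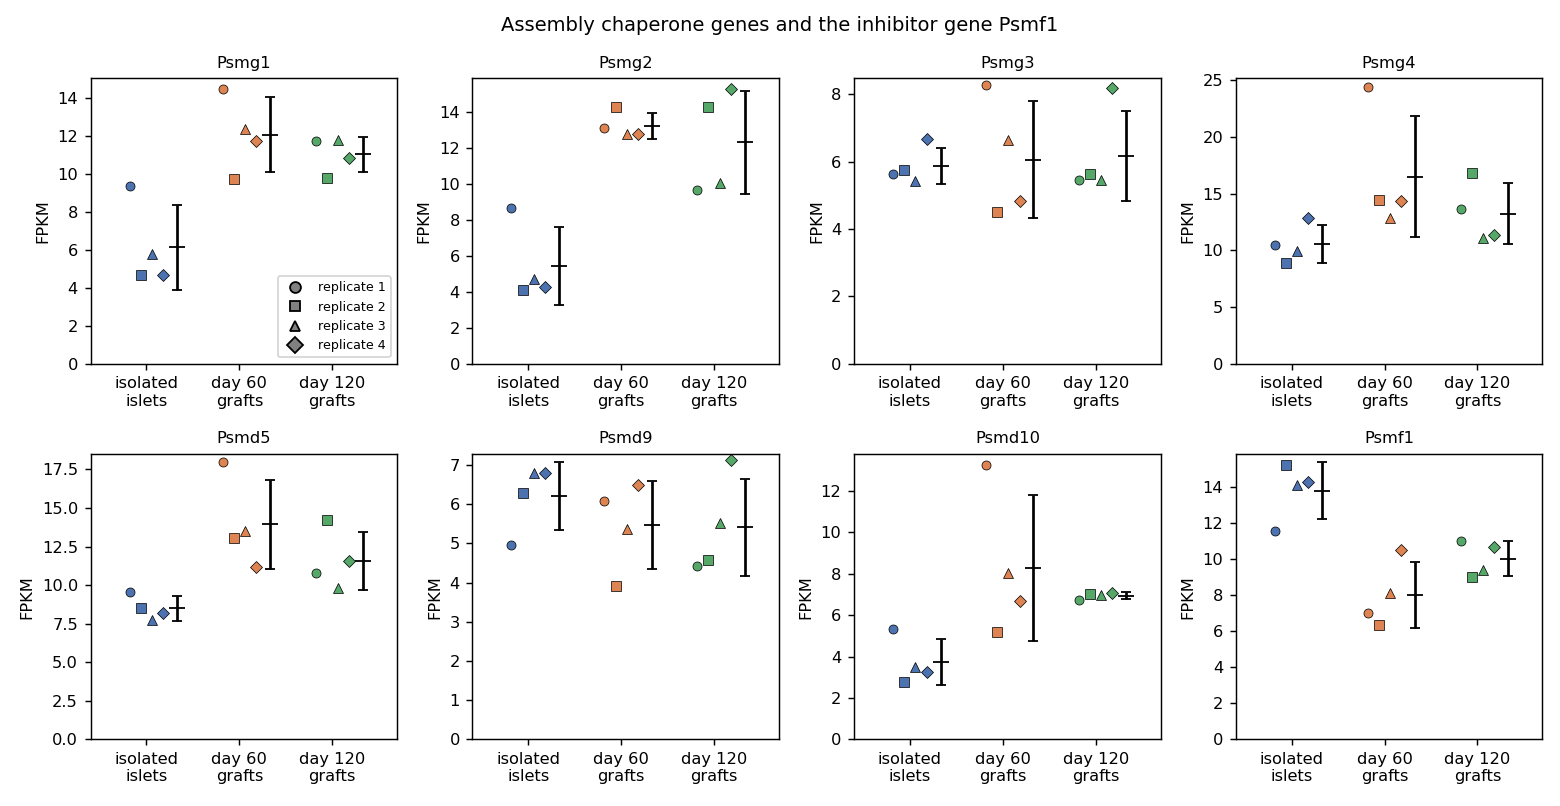
FPKM of the 7 assembly chaperones and of the core inhibitor gene Psmf1 in each library, with 1 marker shape per replicate number and mean and SD (n = 4) beside the points. Psmg1 and Psmg2 lie higher in all 8 grafts than in all 4 islet libraries, Psmg3 and Psmd9 overlap between the groups, and Psmf1 lies lower in all grafts.

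Among the proteins that open or block the core, the inhibitor Psmf1 (PI31) fell at day 60 and no activator passed. Psmf1 was at 11.6, 15.2, 14.1 and 14.3 FPKM in islets, 6.98, 6.35, 8.10 and 10.5 at day 60, and 10.96, 9.01, 9.36 and 10.7 at day 120. Every graft lay below every islet library. It fell by 0.73 on the log2 scale at day 60 (adjusted p = 0.00506) and differed by -0.42 at day 120 (adjusted p = 0.0707).

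Psme1 and Psme2 form the PA28 cap, which is induced by interferon gamma together with the immune subunits. Psme1 was at 35.5, 39.6, 33.8 and 29.4 FPKM in islets, 114, 40.6, 42.8 and 45.8 at day 60, and 39.9, 33.8, 34.9 and 46.0 at day 120. Psme2 was at 46.9, 54.1, 51.1 and 44.5 FPKM in islets, 153, 61.9, 69.2 and 48.8 at day 60, and 48.3, 50.7, 51.5 and 55.6 at day 120. Apart from replicate 1 of day 60 the values ran from 29.4 to 46.0 FPKM for Psme1 and from 44.5 to 69.2 for Psme2. For Psme1 the day 60 grafts all lay above the islets. Their log2 changes were 0.66 (adjusted p = 0.0714) and 0.61 (adjusted p = 0.0866) at day 60, and 0.15 (adjusted p = 0.695) and 0.07 (adjusted p = 0.864) at day 120. Without replicate 1 of day 60 the day 60 changes were 0.31 and 0.27. Mouse Psme2 has a near-identical copy in the genome, so its level is uncertain where reads were split between them. Psme3, the nuclear PA28 gamma, differed from islets by -0.22 (adjusted p = 0.374) and -0.12 (adjusted p = 0.66), and Psme4, the PA200 cap, by -0.32 (adjusted p = 0.209) and -0.26 (adjusted p = 0.314).

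Groups that did not overlap were counted as well. At day 60, 12 of 47 rows did not overlap with islets (25.5%), 11 above and 1 below, where 31.1% of all genes did not overlap, 22.0% above and 9.01% below. At day 120, 9 of 47 did not (19.1%), 8 above and 1 below, against 35.5% of all genes, 28.3% above and 7.24% below. These genes include Psma1, Psma4, Psmb1, Psmb9, Psmg1 and Psmg2, which lay above islets at both times, and Psmf1, which lay below at both. Whether the family differs from other genes in this was not tested.

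Day 120 and day 60 grafts were compared directly. No member passed in limma, and 5 of 47 (Psmd14, Psma5, Psmb8, Psmb1 and Psmb9) were at an unadjusted p under 0.05, all lower at day 120, where 1356 of 13433 genes were under that level and 2 passed after adjustment. Psma7, Psmb8 and Psmd14 were lower at day 120 without overlap (6.38% of the 47; 4.29% of all genes did not overlap and 1.38% were lower). Psmb8 differed by -0.99 on the log2 scale (adjusted p = 0.49) and Psmb9 by -0.84 (adjusted p = 0.49), or by -0.54 and -0.37 without replicate 1 of day 60. The 47 rows had a median log2 change of -0.19, beside 0.03 over all genes, and of -0.04, beside 0.01, without that library. The leukocyte sum was at most 347 FPKM at day 120 and up to 1561 at day 60, and its part in these values was not tested.

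Genes that work with the proteasome but fall outside the naming rule were counted from lists. Of 15 partners, 3 rose at day 60 (Pomp, Shfm1 and Ubqln4) and 2 fell (Rad23b and Adrm1), and Ubqln4 rose at day 120. These 5 of 15 and 1 of 15 stand beside the 43.7% and 31.4% of all genes that passed. Pomp, the maturation protein that completes the core, was at 59.7, 52.0, 46.8 and 49.5 FPKM in islets, 186, 75.3, 104 and 72.4 at day 60, and 85.4, 72.7, 71.5 and 73.1 at day 120. All grafts lay above all islets, with a log2 change of 0.96 (adjusted p = 0.0101) at day 60. Shfm1, now Sem1, a small lid subunit, rose by 0.98 (adjusted p = 0.0235), and Ubqln4, a shuttle for ubiquitinated proteins, by 0.75 (adjusted p = 0.00703) at day 60 and 0.83 (adjusted p = 0.00829) at day 120. Rad23b, another shuttle, fell by 0.83 (adjusted p = 0.0145), and Adrm1, the ubiquitin receptor of the 19S base, by 0.61 (adjusted p = 0.0265). The day 60 call of Ubqln4 was lost under 1 of the 3 scalings. The calls of Shfm1 and Adrm1 were lost without replicate 2, 3 or 4 of the islets, that of Adrm1 also without replicate 2 or 3 of day 60, and that of Rad23b without replicate 3 of the islets. Adrm1 lies outside the rule used to name partners and was named after its value was seen.

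Nfe2l1 encodes the transcription factor that restores proteasome genes when proteasome activity falls, and Ddi2 and Ngly1 encode the protease and the glycanase that activate it. Of 8 genes of this axis, 2 were higher and 3 lower at both times, beside the same 43.7% and 31.4% of all genes called. Nfe2l1 itself averaged 75.3 ± 13.8 FPKM in islets, 52.2 ± 17.2 at day 60 and 63.0 ± 15.6 at day 120 (SD, n = 4 each), with log2 changes of -0.57 (adjusted p = 0.101) and -0.27 (adjusted p = 0.458). Ddi2 fell by 1.30 and 1.00 on the log2 scale (adjusted p = 0.00155 and 0.00991), and Ngly1 rose by 0.78 and 0.57 (adjusted p = 0.00195 and 0.0136), although its day 120 call held under 1 of the 3 scalings. The small Maf genes Maff and Mafk, whose proteins pair with such factors, fell by 2.42 and 1.54 at day 60 and by 2.19 and 1.52 at day 120. The related factor Nfe2l2, named after its value was seen, rose by 1.63 (adjusted p = 0.00528) and 1.38 (adjusted p = 0.0181), the second of which was lost without replicate 2, 3 or 4 of the islets or replicate 4 of day 120.

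Of 10 genes of MHC class I presentation, B2m, the light chain of the complex, rose by 3.01 (adjusted p = 0.00223) at day 60 and 1.70 (adjusted p = 0.0412) at day 120, and Calr, a chaperone that loads peptides, fell by 0.70 (adjusted p = 0.0367) at day 60. These 2 of 10 and 1 of 10 stand beside 43.7% and 31.4% of all genes. The B2m call at day 120 was lost with no filter on low values, under 1 of the 3 scalings and without any 1 islet library, replicate 3 of day 60, or replicate 1, 3 or 4 of day 120, and the Calr call without any 1 islet library, replicate 2 of day 60 or replicate 3 of day 120. Tap1, which shares its start region with Psmb9, was at 3.96, 13.2, 12.9 and 12.4 FPKM in islets, 17.8, 12.2, 6.49 and 8.88 at day 60, and 7.48, 4.03, 5.39 and 7.27 at day 120. Unlike those of Psmb9, the Tap1 values overlapped between islets and grafts, with log2 changes of 0.12 (adjusted p = 0.803) and -0.63 (adjusted p = 0.188). The difference between the 2 genes was not tested.

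Of the 13 tested genes of the interferon gamma axis, 3 rose and 2 fell at day 60, and 1 rose and 2 fell at day 120. These 5 of 13 and 3 of 13 stand beside 43.7% and 31.4% of all genes. Irf8, a factor of myeloid and B cells, rose by 2.46 and 1.46 (adjusted p = 9.66e-05 and 0.00394), and at day 60 Ciita, which drives MHC class II genes, rose by 1.42 (adjusted p = 0.00255) and Ifngr1, the ligand-binding receptor chain, by 1.32 (adjusted p = 0.00719). Irf1, the factor known to induce Psmb9 and Tap1, fell by 0.78 (adjusted p = 0.00819) and 1.07 (adjusted p = 0.00384), and Jak2, the receptor kinase, fell by 1.04 (adjusted p = 0.00906) and 1.15 (adjusted p = 0.0102). The leukocyte and macrophage marker sums given above moved with Irf8, and their part was not tested.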

How the data were processed

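The authors deposited 1 table of FPKM values per gene for 12 libraries, made with TopHat2 and Cufflinks 2.1.1 on mm9 per the submitters' processing notes; their annotation, options and any scaling between libraries are not given in the sources used here. Per the labels' protocols, cDNA was made from total RNA with a low-input kit. FPKM hold no counts, so depth and counting error are unknown and no count model was used. The members and the gene lists were chosen with earlier results of these data known.

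Genes at 1 FPKM or more in at least 4 libraries were kept (13433 of 23234). Values were analysed as log2(FPKM + 1), which understates changes of low genes, with limma 3.58.1 in R 4.3.3 (statmod 1.5.0): 1 fit over all 12 libraries, moderated variances with a trend in mean level and robust estimation, and Benjamini-Hochberg adjustment over all kept genes, with a threshold of 0.05. Pair ratios, also with 1 added to each FPKM value, were compared with exact permutation tests (SciPy 1.17.1, Python 3.11.15). The script was tested on simulated data. No library pair had identical values.

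Members were named by role, with the catalytic subunits, activators and inhibitor in full and the largest and smallest change of each list, and up to 4 genes with the smallest p of each pathway list reported plus Tap1, Nfe2l1, Pomp and Irf1; a few listed genes are not reported here. The listed genes Paaf1 and Trbc2 have no row.

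Replicate numbers were checked for pairing: deviations of same-numbered day 60 and day 120 grafts correlated at 0.18 to 0.442 and each of the 4 matched its own number best, so a replicate block was fitted to the grafts, whereas islets and grafts did not deviate together (-0.0784 to 0.0199). Alternatives were a pseudocount of 0.1, no filter on low values, 3 scalings, each library left out, 2 libraries left out together and the replicate block.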

Additional observations from a re-analysis of the deposited data

Results flagged for a closer look

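Of 147 groups of 4 FPKM values of the members, 15 held 1 library whose gap to the others was above the 95% limit of Dixon's test, where chance flags about 1 in 20 groups. Of these, 6 were high values in replicate 1 of day 60. They were Psmb8 at 68.5 FPKM (others 18.5 to 19.9), Psmb9 at 45.4 (10.1 to 12.9), Psmb10 at 41.5 (8.88 to 13.2), Psmb4 at 108.7 (67.5 to 72.8), Psmg4 at 24.4 (12.9 to 14.5) and Psme1 at 114 (40.6 to 45.8). All 3 immune subunits are among them. That library also had the highest leukocyte, macrophage, fibroblast and adipocyte marker sums, whose part in these values was not tested.

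In replicate 1 of the isolated islets, Psma3 at 46.0 FPKM (others 64.2 to 65.9), Psma7 at 61.2 (90.2 to 93.1) and Psmc2 at 36.2 (52.4 to 55.6) were low and Psmg2 at 8.68 (4.11 to 4.71) was high. The other flagged values were spread over libraries. Psma4 was high in replicate 4 of the islets (53.0 FPKM, others 45.0 to 45.5), Psmb2 in replicate 1 of day 120 (70.7, others 61.4 to 62.0), Psmg3 in replicate 4 of day 120 (8.18, others 5.45 to 5.63) and Psmb11 in replicate 2 of day 60 (1.48, others 0.405 to 0.549). Psmd6 was low in replicate 4 of day 60 (43.5 FPKM, others 54.4 to 55.5).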

How the results depend on the processing

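The day 60 count of called members (13) was 10 to 16 without each library in turn and 20 without replicate 1 of the islets and of day 60 together. Of all genes, 43.7% were called with all libraries, 30.6 to 51.5% without each library in turn and 57.9% without those 2. The day 120 count (4) was 8 with upper-quartile scaling, 7 with quantile normalization, 17 without both of those libraries and 1 to 11 without 1 library. It was 11 without replicate 1 of the islets, 10 without replicate 1 and 7 without replicate 2 of day 60, 1 without replicate 2 or 4 of the islets, and 2 without replicate 3 of the islets or any day 120 graft. The share of all genes called moved as well, from 31.4% to 41.4, 45.2 and 33.2% in the first 3 of these settings. It was 14.2 and 13.8% without replicate 2 or 4 of the islets, 14.5% without replicate 3, and 19.1 to 24.2% without a day 120 graft. Without both replicate 1 libraries it was 56.5%. A day 60 library is in neither group of the day 120 comparison. It enters only through the fit over all libraries and the filter on low values. The median log2 change of the members at day 120 stayed at 0.01 without replicate 1 of day 60. The cause of the shifts was not tested beyond this. The count between day 120 and day 60 was 0 under every alternative run. With the replicate block over all 12 libraries, 12 members were called at day 60 (10 higher and 2 lower) and 5 at day 120, and the replicate block over the 8 grafts called 0. Of all genes, the first block called 43.2% at day 60 and 31.7% at day 120, and the second 0.0229%. The Psmb8 to Psmb5 difference at day 60 turned from 0.30 to -0.24 without both libraries and ranged from -0.000598 to 0.48 without 1 library. The Psmb10 to Psmb7 difference between day 120 and day 60 turned from -0.13 to 0.0708 without both and ranged from -0.24 to 0.0708 without 1 library. Irgm1, of the interferon list, turned from 0.00 to -0.71 at day 60 without both. With 3 against 4 libraries no permutation p can fall under 0.0571, and over 4 graft pairs none under 0.125, so these say nothing about the stability of the ratio tests. FPKM without counts give no limit for the low values of Psma8 and Psmb11.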
